A study of Mus musculus with 24 samples.

Results

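A set of 39 germ cell and meiosis genes was followed through the supporting cells of the mouse fetal gonad. The members were listed by name as known germ cell or meiotic genes, by a rule that used no measured value but with earlier results of these data known, and all 39 were found among the 32040 genes of the deposited tables. RNA of sorted cells was measured in 24 libraries, with 3 for each of 8 groups of sex and stage. The XX groups were pre-granulosa cells of the Tg(Enh8-mCherry) mouse line from embryonic day E11.5 through E12.5 and E13.5 to E15.5. The XY groups were Sertoli cells of the SOX9-IRES-GFP line at the same stages. All cells came from fetal gonads by fluorescence-activated sorting, and polyadenylated RNA was amplified as cDNA from a low input. Sex, cell type, mouse line and reporter all differed between XX and XY, and their parts in a difference between the sexes cannot be told apart. A sort for a reporter can hold other cells of the gonad, and in bulk RNA fewer cells of a type and less RNA per cell cannot be told apart. Nothing in the labels says that replicates came from separate animals, so p-values measure the spread between these libraries, which may be technical. The library labelled XX E13.5 replicate 1 carries E12.5 in another field of its label, and it was kept at E13.5.

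In the fetal ovary, germ cells enter meiosis during these stages under retinoic acid and BMP signals, through STRA8 and its partner MEIOSIN. In the fetal testis, germ cells do not enter meiosis, stop dividing and turn on the PIWI-interacting RNA (piRNA) pathway that silences transposons. Supporting cells are somatic and surround the germ cells, and in somatic cells many germline genes are kept silent by DNA methylation and by a repressor complex that contains E2F6, MGA and PCGF6. In meiosis the chromosomes of a germ cell are held by special cohesins, folded on an axis, broken and repaired by recombination, and joined in pairs by the synaptonemal complex, whose lateral elements, transverse filaments and central element are built of separate proteins.

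The deposited estimated counts summed to between 11275251 and 37256881 per library. Pre-granulosa markers (Foxl2, Fst, Wnt4, Rspo1 and Irx3) summed to between 151 and 985 TPM (the authors' level, scaled for transcript length and library depth) in XX libraries and to at most 16.9 TPM in XY libraries. Sertoli markers (Sox9, Amh, Dhh, Ptgds and Fgf9) summed to between 664 and 1144 TPM in XY E11.5, to between 6082 and 7996 TPM in later XY libraries and to at most 108 TPM in XX libraries. Each kind of library thus held its own defining markers, with those of the other sex lower. They were least apart in XX E11.5 replicate 1, which held the most Sox9 of the XX libraries (91.05 TPM), with Fst at 128 TPM and Foxl2 at 1.35 TPM. Markers of other cells were present too. Interstitial markers (Pdgfra, Nr2f2, Tcf21 and Dcn) summed to between 59.6 and 207 TPM in XX libraries, to between 171 and 264 TPM in XY E11.5 and to between 4.05 and 23.5 TPM in later XY libraries. Steroidogenic markers (Star, Cyp11a1, Hsd3b1, Cyp17a1 and Insl3) summed to between 65.2 and 263 TPM in XX libraries, to between 235 and 297 TPM in XY E11.5 and to between 45.7 and 91.9 TPM in later XY libraries. Erythroid markers summed to between 7400 and 62347 TPM in XX E11.5, to between 385 and 3399 TPM in later XX libraries and to between 22.8 and 234 TPM in XY libraries. Immune markers summed to between 95.2 and 263 TPM in XX E11.5, to between 19.7 and 40.0 TPM in later XX libraries and to at most 1.47 TPM in XY libraries. The 7 germ cell markers (Ddx4, Dazl, Dppa3, Pou5f1, Nanog, Dnd1 and Nanos3) are themselves members, and summed to between 11.6 and 33.4 TPM up to E13.5, to between 40.0 and 50.5 TPM in XX E15.5 and to between 52.4 and 87.6 TPM in XY E15.5. Different genes led these sums at E15.5, Dazl in XX (mean 24.6 TPM) and Dppa3 in XY (mean 30.5 TPM), so the sums do not compare germ cell content between the sexes. The share of any member's RNA that came from germ cells in the sort was not tested.

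Promoter sequence was examined because the repressor complex named above is known to bind 2 short motifs, the E-box CACGTG (MGA with its partner MAX) and the E2F6-type motif TTCCCGC. The other motif searched, CNCCTCAG, is the one known for STRA8. RefSeq promoters (build GRCm38.p6, from 250 bases before to 50 bases after each start) were found for 31 of the 39 members, in 40 promoters, and both strands were searched. The E-box was present in 14 of the 40 (35.0%), against 7.15% of all 32851 promoters. The E2F6-type motif was present in 10 (25.0%), against 4.60% of all, and the STRA8 motif in 9 (22.5%), against 7.94% of all. Some members have several promoters, and those of Hormad1 and Tdrd1 overlap and share their E-boxes. By gene, the E-box was present in 12 of the 31 members and each of the other motifs in 9. The shares of all promoters were not counted by gene. A match is a description of letters and no evidence of binding. The stretches printed here were chosen for members that the results turn on, namely 3 synaptonemal complex or cohesin genes with large rises in XX (Sycp3, Tex12 and Smc1b), a piRNA gene that rose in both sexes (Mael) and a transcription factor that moved in opposite directions (Sohlh1). Each ends before the gene's start in both RefSeq and GENCODE M21, reads 5′ to 3′ on the gene's strand and has the E-box and E2F6-type matches in capitals, none of which overlap.
Sycp3, chr10:88459337-88459568, plus strand: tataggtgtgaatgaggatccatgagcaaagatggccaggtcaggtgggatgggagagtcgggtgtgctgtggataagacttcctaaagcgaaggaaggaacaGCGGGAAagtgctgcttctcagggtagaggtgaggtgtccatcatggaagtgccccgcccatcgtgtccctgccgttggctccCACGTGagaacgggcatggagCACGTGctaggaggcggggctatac
Tex12, chr9:50561326-50561518, minus strand: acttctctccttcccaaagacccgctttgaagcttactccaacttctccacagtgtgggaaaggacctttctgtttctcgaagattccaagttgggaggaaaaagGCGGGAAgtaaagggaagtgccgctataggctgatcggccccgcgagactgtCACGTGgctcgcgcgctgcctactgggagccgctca
Smc1b, chr15:85131965-85132207, minus strand: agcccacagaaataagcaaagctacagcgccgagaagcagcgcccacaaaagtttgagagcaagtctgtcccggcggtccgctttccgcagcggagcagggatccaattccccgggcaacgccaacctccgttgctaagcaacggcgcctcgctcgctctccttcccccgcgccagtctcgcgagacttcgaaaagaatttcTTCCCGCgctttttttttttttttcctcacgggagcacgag
Mael, chr1:166238748-166238994, minus strand: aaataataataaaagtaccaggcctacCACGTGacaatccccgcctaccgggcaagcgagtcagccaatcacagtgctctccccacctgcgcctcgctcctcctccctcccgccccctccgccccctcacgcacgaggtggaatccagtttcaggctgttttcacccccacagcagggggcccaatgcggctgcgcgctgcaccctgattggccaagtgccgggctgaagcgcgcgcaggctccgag
Sohlh1, chr2:25847249-25847498, minus strand: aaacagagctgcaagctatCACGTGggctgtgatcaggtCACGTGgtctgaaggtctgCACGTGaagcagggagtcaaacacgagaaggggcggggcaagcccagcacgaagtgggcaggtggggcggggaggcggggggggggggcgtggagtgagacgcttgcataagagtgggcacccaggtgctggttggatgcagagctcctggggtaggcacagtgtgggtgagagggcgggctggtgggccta
The Sycp3 stretch holds 2 E-boxes and 1 E2F6-type motif, that of Tex12 holds 1 of each, that of Smc1b 1 E2F6-type motif, that of Mael 1 E-box and that of Sohlh1 3 E-boxes.

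Across the 8 groups, more members reached a mean of 1 TPM at E15.5 than at the earlier stages, in XX and in XY. The number of members with a mean of at least 1 TPM was 12, 17, 19 and 32 at the successive stages in XX and 16, 17, 13 and 26 in XY. The TPM of all 39 members summed to between 179.7 and 263 in XX libraries up to E13.5 and to between 501 and 661 in XX E15.5. In XY the sum was between 109 and 149.6 up to E13.5 and between 273 and 365 at E15.5. Before E15.5 the highest means in XX were those of Syce2 and Rec8. Of the 39 members, 38 passed the filter on low counts and were tested, and Nanos2 did not pass. The filter passes any gene, member or not, that has enough counts in a single group. Syce3, Meiob, Figla and Spo11 had few counts outside XX E15.5, and Piwil4 had few outside XY E15.5. Calls for such members are not independent of their having passed the filter.

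**Figure D1:**
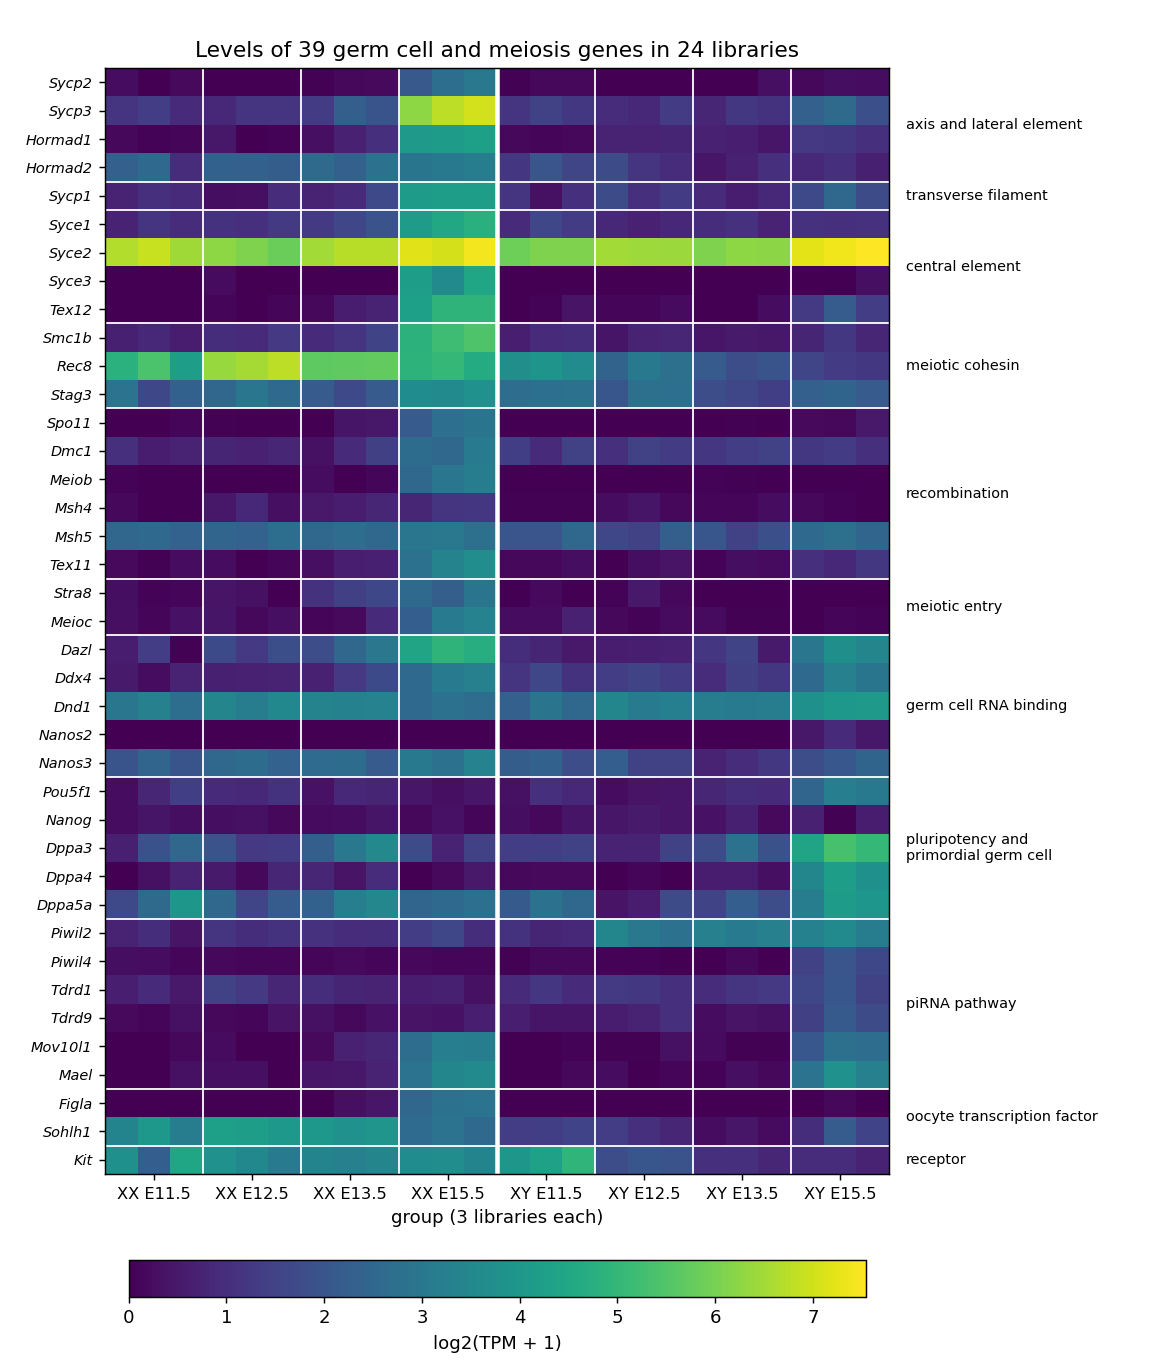
Levels of the 39 members as log2(TPM + 1), with 1 row per gene grouped by role and 1 column per library, XX on the left and XY on the right of the thick white line. At E15.5 Sycp3, Smc1b and Tex12 are brighter in XX, Dppa3, Dppa4 and Piwil2 are brighter in XY, and Syce2 is bright in every library.

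Between E13.5 and E15.5 in XX, 23 of the 38 members tested rose, where 12.8% of all 16190 genes rose, and 4 fell, where 12.8% of all genes fell (edgeR, adjusted p under 0.05 by Benjamini-Hochberg). The median log2 difference was 2.03 over the members and 0 over all genes. All 4 axis and lateral element genes, the transverse filament gene, all 4 central element genes, 5 of 6 recombination genes and both meiotic entry genes were among those that rose. The 4 that fell were Rec8, Dnd1, Dppa3 and Sohlh1. In the same step none of the 4 interstitial markers was called, and of the 5 steroidogenic markers 1 rose and 2 fell.

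Sycp3, a lateral element protein that compacts the chromosome axis (chr10:88459569-88473236), reached the highest XX E15.5 level among the members that were low at E13.5. Its 3 libraries stood at 1.52, 3.90 and 2.92 TPM in XX E13.5 and at 75.35, 109.8 and 128 TPM in XX E15.5. The groups did not overlap, and the log2 difference was 5.16 (SE 0.33, adjusted p 9.78e-10). Sycp3 shares 52.2% of its exon bases with Chpt1, a phospholipid enzyme gene on the opposite strand, and whether counting used strand is not given in the sources used here. Chpt1, named after its values were seen, stood at a mean of 13.7 ± 2.53 TPM in XX E13.5 (SD, n = 3). In XX E15.5 its mean was 20.3 ± 2.43 TPM, below the Sycp3 libraries there. Chpt1 also rose in this step (log2 difference 0.46, adjusted p 0.00878), and its log2 steps differed between the sexes by 0.73 (adjusted p 0.00452). At E15.5 it was higher in XX than in XY (log2 difference 1.41, adjusted p 2.82e-09). The part of Chpt1 reads in the Sycp3 level was not tested. Sycp2, the lateral element partner of SYCP3, stood at 0.04, 0.12 and 0.15 TPM at E13.5 and at 3.32, 5.58 and 7.03 TPM at E15.5. Hormad1, an axis protein that monitors chromosome pairing, stood at 0.24, 0.63 and 1.04 TPM and then at 15.7, 16.9 and 18.02 TPM. Neither gene had overlapping groups, and the log2 differences were 5.75 (SE 0.70, adjusted p 1.35e-05) for Sycp2 and 4.73 (SE 0.45, adjusted p 2.98e-07) for Hormad1. Hormad2, the related axis protein, was already at 5.12, 3.98 and 6.07 TPM at E13.5 and rose to 6.55, 7.25 and 8.10 TPM, a log2 change of 1.07 (SE 0.35, adjusted p 0.0274). That call was lost without XX E13.5 replicate 1, 2 or 3 or without XX E15.5 replicate 2 or 3, where its adjusted p was between 0.0552 and 0.117. It was also lost by limma on log2(TPM + 1), with an adjusted p of 0.284, and with XX E13.5 replicate 1 placed at E12.5, with 0.0921.

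The transverse filament and central element genes, which join the paired axes, followed the same course. Sycp1, the transverse filament protein, stood at 0.67, 0.85 and 2.19 TPM in XX E13.5 and at 17.04, 17.7 and 17.9 TPM in XX E15.5. The log2 difference was 4.33 (SE 0.42, adjusted p 4.07e-07). Syce1, a central element protein, went from 1.44, 2.06 and 2.84 TPM to 17.1, 22.2 and 26.7 TPM, a log2 change of 3.38 (SE 0.31, adjusted p 2.36e-07). Tex12, the central element partner of SYCE2, went from 0.13, 0.49 and 0.68 TPM to 18.3, 29.2 and 28.8 TPM, a log2 change of 5.77 (SE 0.63, adjusted p 3.56e-06). The libraries of the 2 stages were apart for each of these genes. Syce3, which links the filament to the central element, had no count in any XX E13.5 library and 17.8, 11.25 and 20.97 TPM at E15.5, which was at least 19.7-fold higher in counts scaled for depth (CPM) against a floor of 3 counts per library. Syce2 was the exception in level, with 89.9, 104 and 106 TPM already in XX E13.5 and 146, 132 and 169.8 TPM at E15.5. Its log2 rise was smaller, at 0.64 (SE 0.14, adjusted p 0.00233), and it was not called with XX E13.5 replicate 1 placed at E12.5 (adjusted p 0.0812).

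The meiotic cohesins did not move together. Smc1b, the meiotic SMC subunit of cohesin (chr15:85064689-85131964), stood at 0.87, 1.26 and 1.92 TPM in XX E13.5 and at 27.7, 35.7 and 43.1 TPM in XX E15.5. The groups were far apart and the log2 difference was 4.71 (SE 0.31, adjusted p 1.75e-09). Stag3, the meiotic STAG subunit, went from 3.45, 2.20 and 3.51 TPM to 11.7, 11.3 and 13.2 TPM, a log2 change of 2.25 (SE 0.26, adjusted p 4.57e-06). Rec8, the meiotic kleisin subunit, moved the other way, and was present from E11.5.

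Among the recombination genes, each called rise started from a mean below 1 TPM except that of Msh5. Spo11, the enzyme that makes the meiotic double-strand breaks, went from 0, 0.34 and 0.39 TPM to 3.51, 5.72 and 6.40 TPM, a log2 change of 5.06 (SE 0.72, adjusted p 9.17e-05). Dmc1, the meiotic strand exchange protein, went from 0.27, 0.91 and 1.67 TPM to 5.32, 4.77 and 7.38 TPM, a log2 change of 2.86 (SE 0.38, adjusted p 1.73e-05). Meiob, a single-strand DNA binding protein of recombination, went from 0.20, 0 and 0.07 TPM to 4.70, 6.75 and 8.10 TPM, a log2 change of 6.47 (SE 0.73, adjusted p 4.65e-05). None of these groups overlapped. Tex11, an X-linked protein of crossover sites, went from 0.25, 0.56 and 0.59 TPM to 5.97, 9.41 and 12.04 TPM, a log2 change of 4.25 (SE 0.55, adjusted p 1.53e-05). Msh5, which with MSH4 stabilises crossover intermediates, stood at 4.87, 5.46 and 4.90 TPM and then at 6.85, 7.11 and 5.85 TPM, a log2 rise of 0.84 (SE 0.25, adjusted p 0.0162). That call was lost without XX E13.5 replicate 1 (adjusted p 0.0705) or XX E15.5 replicate 2 (adjusted p 0.0524), with replicate 1 of XX E13.5 placed at E12.5 (adjusted p 0.0803), and by limma on log2(TPM + 1) (adjusted p 0.241). Msh4 was the 1 recombination gene with no call in this step, at 0.42, 0.50 and 0.76 TPM and then 0.75, 1.23 and 1.28 TPM.

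The 2 meiotic entry genes were detected in XX and nearly absent in XY at the late stages. Stra8, the transcription factor that starts the meiotic program, stood at 0.32, 0.27 and 0 TPM in XX E12.5, at 1.17, 1.69 and 2.12 TPM in XX E13.5 and at 4.98, 3.86 and 6.42 TPM in XX E15.5. No count was found in any XY E13.5 or XY E15.5 library, which put XX at least 7.26-fold higher at E13.5 and at least 22.5-fold higher at E15.5. The log2 rise from E12.5 to E13.5 was 3.07 (SE 0.75, adjusted p 0.00474), and that from E13.5 to E15.5 was 1.80 (SE 0.60, adjusted p 0.036). The later rise was not called without XX E13.5 replicate 1, 2 or 3 or without XX E15.5 replicate 1 or 3, where the adjusted p was between 0.0588 and 0.156, or with that XX E13.5 replicate 1 placed at E12.5 (adjusted p 0.196). Meioc, which keeps germ cells in meiotic prophase, went from 0.09, 0.14 and 0.92 TPM to 3.73, 7.60 and 9.07 TPM in XX, a log2 change of 4.56 (SE 0.51, adjusted p 2.66e-06). In XY E15.5 it was at 0.01, 0.07 and 0.06 TPM, and the XX minus XY log2 value was 6.85 (SE 0.61, adjusted p 2.61e-09).

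Between E13.5 and E15.5 in XY, 22 of the 38 members rose, where 11.51% of all genes rose, and 1 fell (Rec8), where 9.79% of all genes fell. The median log2 difference was 1.92 over the members and 0 over all genes. Markers of other cells moved in this step too, as 3 of 4 interstitial markers and 3 of 5 steroidogenic markers rose and none of either list fell. The interstitial sum went from between 4.05 and 5.37 TPM to between 17.8 and 23.5 TPM, and the erythroid sum, with 1 of 5 markers called upward, from between 34.1 and 64.7 TPM to between 159 and 234 TPM. The part of such cells in the levels of the members was not tested. Pluripotency genes (4 of 5) and piRNA genes (5 of 6) were among those that rose, while 2 of 3 cohesin genes, 1 of 6 recombination genes and neither meiotic entry gene were called upward.

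Pou5f1 (OCT4), a pluripotency factor kept by early germ cells, stood at 0.77, 0.98 and 0.85 TPM in XY E13.5 and at 4.54, 8.31 and 7.21 TPM in XY E15.5. Dppa3 (STELLA), a chromatin protein of primordial germ cells, stood at 2.34, 6.21 and 2.69 TPM and then at 20.2, 39.6 and 31.5 TPM. Dppa4, a pluripotency-associated chromatin protein, stood at 0.51, 0.52 and 0.24 TPM and then at 9.93, 17.8 and 12.9 TPM. No group overlapped with its neighbour in time, and the log2 differences were 3.13 (SE 0.55, adjusted p 0.000278) for Pou5f1, 3.01 (SE 0.56, adjusted p 0.000504) for Dppa3 and 5.08 (SE 0.66, adjusted p 1.06e-05) for Dppa4. Dppa5a, an RNA-binding protein of pluripotent cells, went from 1.93, 3.73 and 2.45 TPM to 8.09, 17.2 and 14.5 TPM, a log2 change of 2.26 (SE 0.59, adjusted p 0.00809). Pou5f1, Dppa3 and Dppa5a have near-identical copies or pseudogenes in the genome, and how reads were divided among them is not given in the sources used here, so their levels are uncertain. Pou5f1 also shares 14.1% of its exon bases with an antisense gene.

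The 5 piRNA genes that rose stayed at low levels. Piwil4 (MIWI2), the PIWI protein that directs transposon methylation in the nucleus of fetal male germ cells, had 0, 0.11 and 0 TPM in XY E13.5 and 1.77, 2.95 and 2.08 TPM in XY E15.5, a log2 change of 6.05 (SE 0.68, adjusted p 2.12e-06). Tdrd9, a helicase that works with it, went from 0.20, 0.33 and 0.26 TPM to 1.69, 3.35 and 2.29 TPM, a log2 change of 3.15 (SE 0.39, adjusted p 7.84e-06). Mael, a piRNA pathway protein of the germ granule (chr1:166201201-166238747), went from 0.05, 0.23 and 0.11 TPM to 6.32, 13.01 and 8.78 TPM, a log2 change of 6.03 (SE 0.73, adjusted p 5.3e-06). These 3 genes had no overlap between the stages. Mov10l1, the helicase that starts piRNA processing, went from 0.17, 0.03 and 0.03 TPM to 3.15, 5.94 and 5.52 TPM, a log2 change of 6.69 (SE 0.69, adjusted p 7.5e-07). Tdrd1, a scaffold of the germ granule, went from 0.94, 1.20 and 1.36 TPM to 2.04, 3.09 and 1.76 TPM, a log2 change of 0.96 (SE 0.32, adjusted p 0.035). The Tdrd1 call was lost without XY E13.5 replicate 1, 2 or 3 or without XY E15.5 replicate 1 or 2 (adjusted p between 0.0519 and 0.211), and by limma on log2(TPM + 0.1) (adjusted p 0.0628).

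Of the RNA-binding proteins of germ cells, the 4 tested rose in XY. Dazl, a translational regulator that licenses germ cells for sexual differentiation, went from 1.28, 1.90 and 0.46 TPM in XY E13.5 to a mean of 9.67 ± 2.86 TPM (SD, n = 3) in XY E15.5, a log2 change of 3.35 (SE 0.49, adjusted p 4.23e-05). Ddx4 (VASA), the helicase widely used to mark germ cells, went from 0.96, 1.71 and 1.33 TPM to 5, 8.69 and 6.61 TPM, a log2 change of 2.30 (SE 0.36, adjusted p 1e-04). Nanos3, which protects migrating germ cells from death, went from 0.69, 0.96 and 1.34 TPM to 2.45, 3.11 and 4.42 TPM, a log2 change of 2.13 (SE 0.41, adjusted p 0.000682). The stages did not overlap for any of the 3. Nanos2, which holds male germ cells back from meiosis, had counts of 10, 16 and 6 in the XY E15.5 libraries and none in the other 21 libraries. Its XY E15.5 level was at least 3.44-fold higher than in XY E13.5 and at least 2.19-fold higher than in XX E15.5, and 49.0% of its exon bases are shared with an antisense gene.

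Some meiotic genes also rose in XY, to a far lower level than in XX. Sycp3 went from 0.77, 1.35 and 1.15 TPM in XY E13.5 to 3.97, 5.09 and 2.55 TPM in XY E15.5, a log2 change of 1.78 (SE 0.35, adjusted p 0.000882). Its overlapping gene Chpt1 had means of 9.07 ± 1.18 and 7.93 ± 0.911 TPM in those groups, above those of Sycp3. Tex12 went from 0, 0 and 0.19 TPM to 1.42, 3.61 and 1.61 TPM, a log2 change of 4.74 (SE 0.82, adjusted p 0.000323). Sycp1 went from 0.91, 0.48 and 0.82 TPM to 2.18, 4.69 and 2.35 TPM, a log2 change of 2.09 (SE 0.44, adjusted p 0.00141). Smc1b went from 0.36, 0.45 and 0.41 TPM to 0.73, 1.35 and 0.75 TPM, a log2 change of 1.28 (SE 0.35, adjusted p 0.0119), and that call was lost without XY E13.5 replicate 3 (adjusted p 0.06) or XY E15.5 replicate 2 (adjusted p 0.114) and by limma on log2(TPM + 1) (adjusted p 0.0985). Syce2 went from 66.9, 75.1 and 73.3 TPM to 151, 165 and 185 TPM, a log2 change of 1.19 (SE 0.14, adjusted p 4.87e-06), and was thus at about the same level in both sexes at E15.5.

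**Figure D2:**
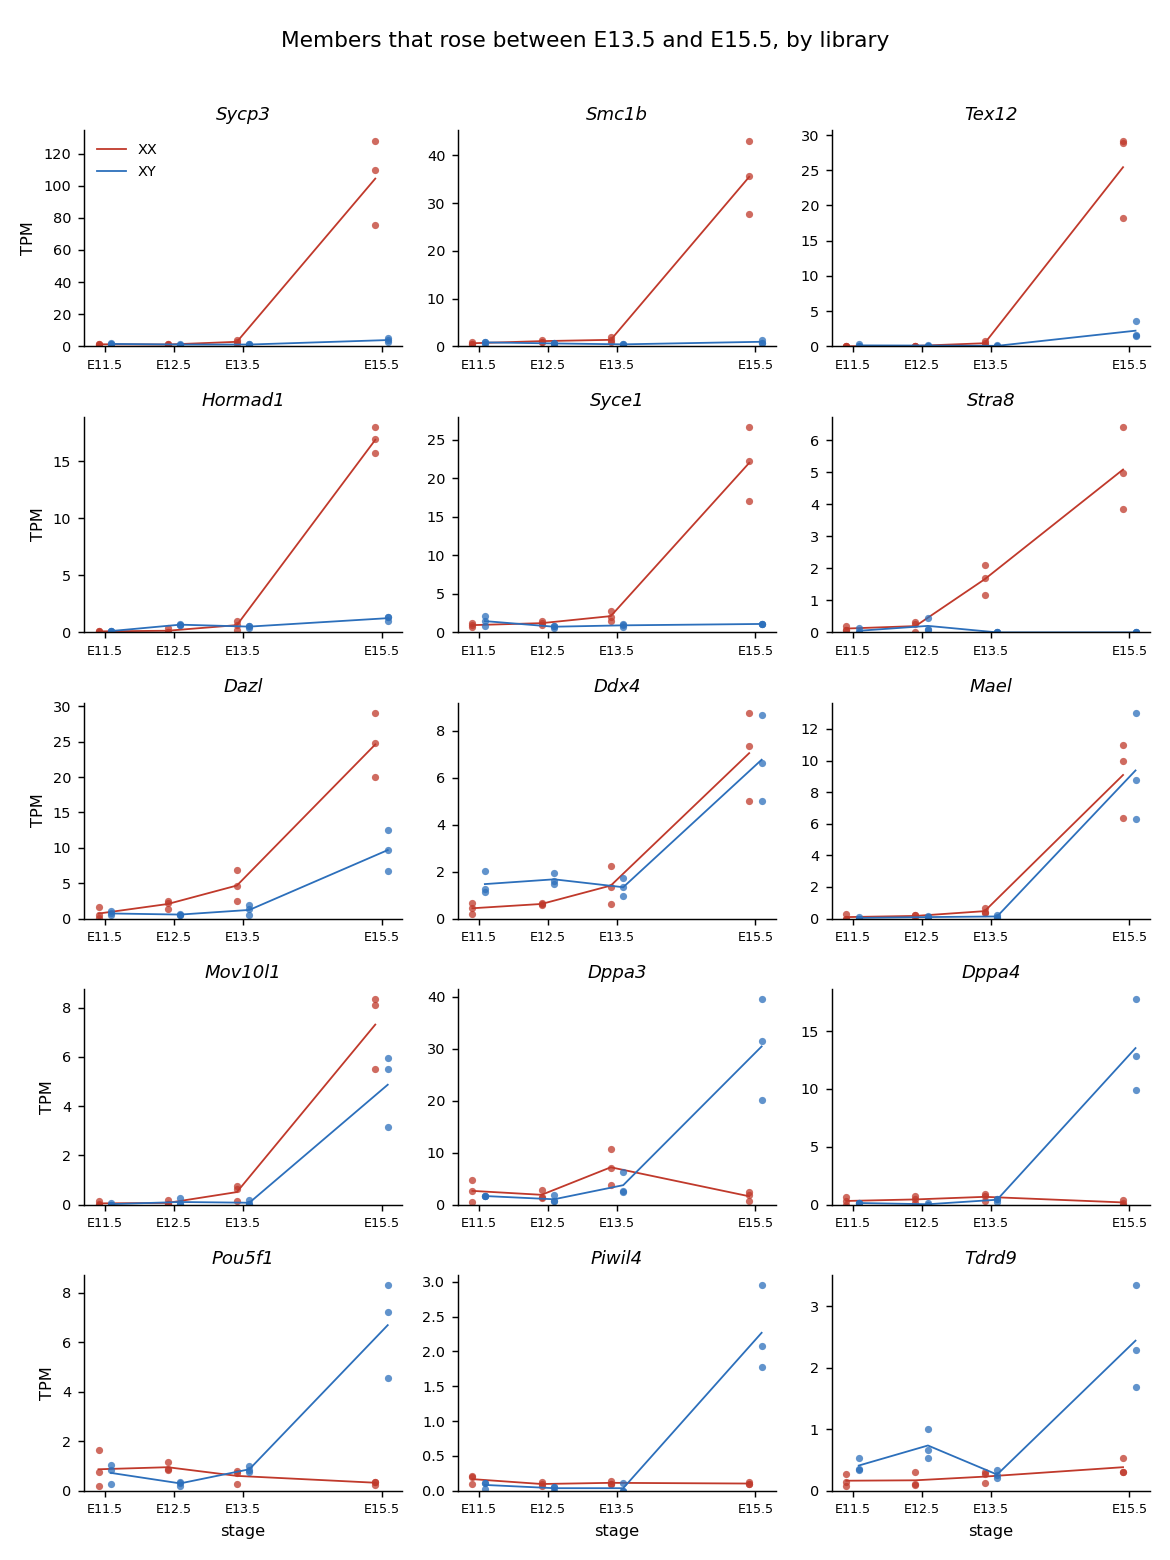
TPM of 15 members by stage, with 1 point per library, XX in red, XY in blue and lines through the means of 3 libraries. From E13.5 to E15.5 Sycp3, Smc1b and Stra8 climb in XX, Dppa3, Dppa4, Pou5f1 and Piwil4 climb in XY, and Ddx4 and Mael climb in both sexes to overlapping levels.

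The steps of the 2 sexes were then compared directly. A total of 12 members rose in both sexes (Syce2, Tex11, Dazl, Mov10l1, Sycp3, Ddx4, Smc1b, Sycp1, Tex12, Stag3, Mael and Sycp2). They are 52.2% of those that rose in XX and 54.5% of those that rose in XY. Of all genes, 12.8% rose in XX and 11.51% in XY. The share of all genes that rose in both was not counted, so the overlap cannot be called high or low. The step itself differed between the sexes for 19 of the 38 members. It was larger in XX for 9, where 12.4% of all genes had a larger step in XX, and lower in XX for 10, where 13.46% of all genes had a lower step in XX. The 9 were Sycp3, Hormad1, Sycp1, Syce1, Smc1b, Stag3, Dmc1, Meiob and Meioc, all meiotic genes. The 10 were Syce2, Dnd1, Pou5f1, Dppa3, Dppa4, Dppa5a, Piwil4, Tdrd1, Tdrd9 and Sohlh1, mostly pluripotency and piRNA genes. A member that was not called need not have had equal steps. Stra8 had no count in XY at either stage, and Syce3 had none at E13.5 in either sex. For such members this test could say little. The difference of the log2 steps, XX minus XY, was 3.38 (SE 0.48, adjusted p 3.66e-05) for Sycp3, 3.43 (SE 0.47, adjusted p 2.35e-05) for Smc1b and -6.29 (SE 1.03, adjusted p 0.000166) for Dppa4. Any change over the 4 stages in the XX minus XY difference was called for 30 of the 38 members, where 70.1% of all genes were called, a share of the members near that of all genes.

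Dppa3, Dnd1 and Sohlh1 moved in opposite directions, with a called fall in XX and a called rise in XY. Dppa3 went from 3.87, 7.07 and 10.6 TPM in XX E13.5 to 2.34, 0.65 and 1.83 TPM in XX E15.5, a log2 change of -2.19 (SE 0.62, adjusted p 0.0125), and its log2 steps differed by -5.20 (SE 0.83, adjusted p 0.000128). The fall in XX was not called without XX E13.5 replicate 3 (adjusted p 0.0589) or XX E15.5 replicate 2 (adjusted p 0.0535). Dnd1, an RNA-binding protein needed for germ cell survival, went from 9.32, 8.93 and 9.08 TPM to 4.92, 6.02 and 5.54 TPM in XX, a log2 change of -0.75 (SE 0.18, adjusted p 0.00524). In XY it went from 7.95, 7.56 and 7.97 TPM to 12.75, 15.3 and 15.4 TPM, a log2 change of 0.85 (SE 0.18, adjusted p 0.00135), and the log2 steps differed by -1.60 (SE 0.26, adjusted p 0.000128). Neither sex had overlapping stages for Dnd1. Sohlh1, a transcription factor of oocytes and spermatogonia (chr2:25842995-25847248), went from 15.2, 12.95 and 14.1 TPM to 5.24, 6.39 and 5.02 TPM in XX, a log2 change of -1.36 (SE 0.31, adjusted p 0.00306). In XY it went from 0.20, 0.38 and 0.17 TPM to 1, 3.55 and 1.86 TPM, a log2 change of 3.02 (SE 0.45, adjusted p 5.85e-05), and the log2 steps differed by -4.38 (SE 0.55, adjusted p 1.08e-05).

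**Figure D3:**
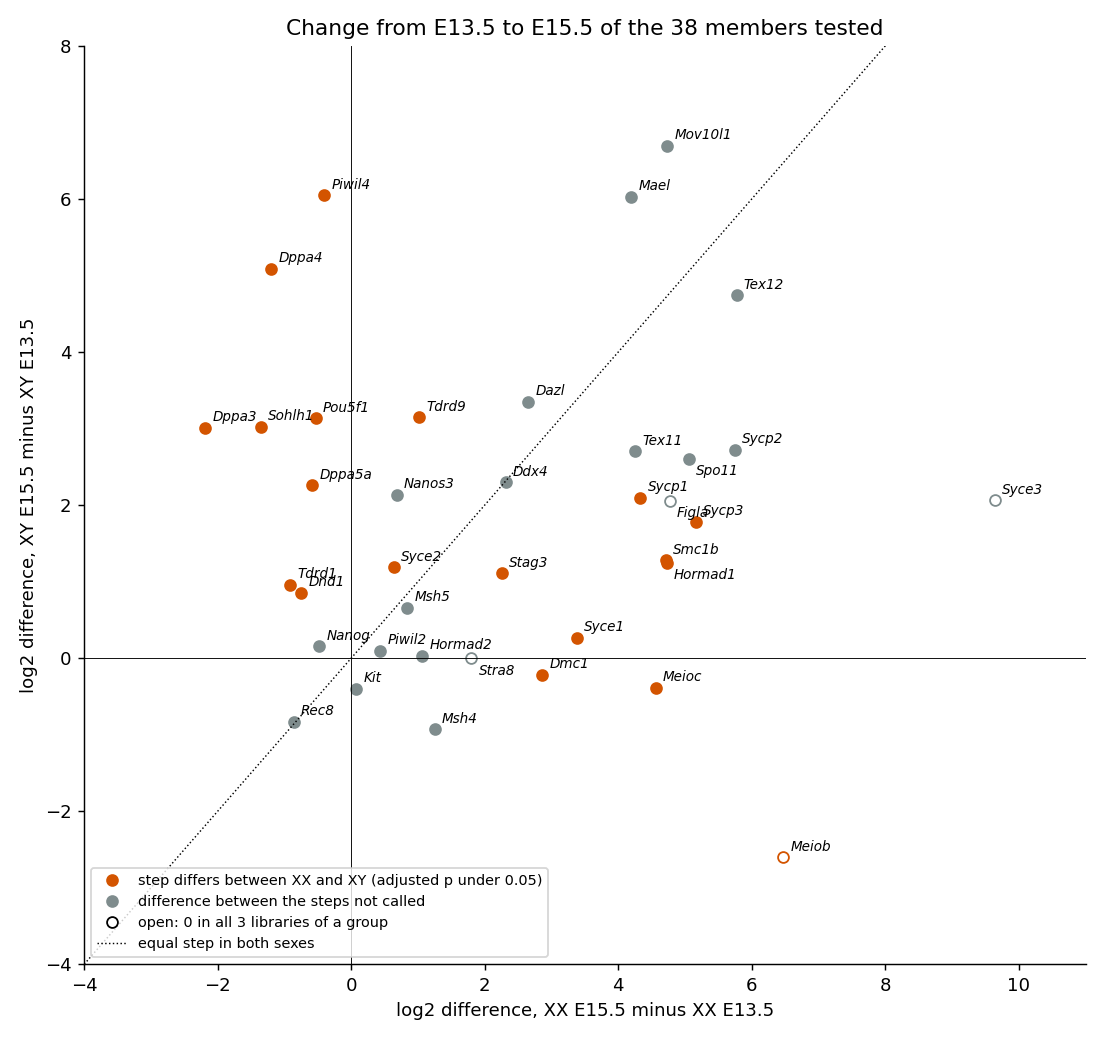
Log2 difference between E15.5 and E13.5 in XX (horizontal) and in XY (vertical) for the 38 members tested, where orange marks a step that differed between the sexes and open points mark a gene at 0 in all 3 libraries of a group, whose fitted value depends on the prior count. Most meiotic genes lie to the right of the dotted line of equal steps, Dppa3, Dnd1 and Sohlh1 lie at upper left with opposite signs, and Ddx4 lies on the line.

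At E15.5, 23 of the 38 members were higher in XX, where 34.9% of all genes were, and 9 were higher in XY, where 34.4% of all genes were. All 4 axis genes, all 3 cohesin genes, all 6 recombination genes and both meiotic entry genes were higher in XX. The 9 higher in XY were Dnd1, Pou5f1, Dppa3, Dppa4, Dppa5a, Piwil2, Piwil4, Tdrd1 and Tdrd9. The log2 difference, XX minus XY, was 4.81 (SE 0.32, adjusted p 2.09e-11) for Sycp3, 5.30 (SE 0.32, adjusted p 6.56e-12) for Smc1b and 3.81 (SE 0.41, adjusted p 4.71e-08) for Hormad1, none with overlapping groups. In the other direction the log2 difference was -5.77 (SE 0.72, adjusted p 3.49e-07) for Dppa4, -4.20 (SE 0.62, adjusted p 4.28e-06) for Dppa3, -4.25 (SE 0.62, adjusted p 3.37e-06) for Pou5f1, -5.06 (SE 0.65, adjusted p 6.19e-07) for Piwil4 and -1.33 (SE 0.18, adjusted p 1.53e-06) for Dnd1. The groups of these 5 genes did not overlap. Meiob had no count in any XY E15.5 library and was at least 40.9-fold higher in XX.

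Ddx4 did not separate the sexes at E15.5. Its libraries stood at 5.01, 7.36 and 8.77 TPM in XX and 5, 8.69 and 6.61 TPM in XY, and these ranges overlapped. The log2 difference was 0.12 (SE 0.34, adjusted p 0.758), and it ran from -0.10 without XX E15.5 replicate 3 to 0.41 without XY E15.5 replicate 2. The Ddx4 log2 step was 2.31 (SE 0.37, adjusted p 0.000138) in XX, from 0.61, 1.36 and 2.24 TPM, and 2.30 (SE 0.36, adjusted p 1e-04) in XY. As a description, levels were set against Ddx4 within each E15.5 library. Ddx4 was chosen after its values were seen. Of the 7 germ cell markers, 4 differed between the sexes at E15.5, where 34.9% of all genes were higher in XX and 34.4% in XY. Dazl was higher in XX, and Dppa3, Pou5f1 and Dnd1 were higher in XY. Ratios to another marker would therefore differ from those given here. The TPM ratio of Sycp3 to Ddx4 was 15.0, 14.9 and 14.6 in XX and 0.794, 0.586 and 0.386 in XY. That of Dppa3 to Ddx4 was 0.467, 0.0883 and 0.209 in XX and 4.05, 4.56 and 4.77 in XY. That of Mael to Ddx4 was between 1.25 and 1.35 in XX and between 1.26 and 1.497 in XY, so the ranges overlapped. Dazl stood at 19.99, 29.1 and 24.8 TPM in XX E15.5, from 2.47, 4.62 and 6.90 TPM at E13.5 (log2 difference 2.65, SE 0.44, adjusted p 0.00019), and its ratio to Ddx4 was between 2.82 and 3.99 in XX and between 1.36 and 1.47 in XY. The Dazl log2 difference between the sexes at E15.5 was 1.62 (SE 0.41, adjusted p 0.00162), and its adjusted p was 0.0553 by limma on log2(TPM + 0.1). Mael and Mov10l1 rose in XX as in XY, Mael from 0.36, 0.39 and 0.65 to 6.33, 9.94 and 10.98 TPM (log2 difference 4.19, SE 0.64, adjusted p 9.2e-05) and Mov10l1 from 0.14, 0.63 and 0.76 to 5.49, 8.35 and 8.10 TPM (log2 difference 4.73, SE 0.57, adjusted p 5.84e-06). Figla, the transcription factor of oocytes that turns on zona pellucida genes, was at 0, 0.25 and 0.38 TPM in XX E13.5 and 4.66, 6.12 and 6.36 TPM in XX E15.5 (log2 difference 4.77, SE 0.70, adjusted p 0.00063). It had 1 count in the 3 XY E15.5 libraries together.

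Another group of members was present from E11.5 or E12.5, before E15.5. Syce2 and Rec8 had the highest levels of these in XX. For Rec8 the libraries stood at 27.4, 41.3 and 17.45 TPM in XX E11.5 and at 82.97, 91.5 and 110.1 TPM in XX E12.5. They then stood at 50.2, 51 and 52.4 TPM in XX E13.5 and at 28.3, 31.35 and 23.8 TPM in XX E15.5. In XY they stood at 12.1, 13.8 and 11.6 TPM, 4.33, 7.26 and 5.95 TPM, 3.44, 2.43 and 2.87 TPM and 1.96, 1.49 and 1.32 TPM at the same stages. The XX libraries were above the XY libraries at each stage, and the log2 difference between the sexes was 1.32 (SE 0.22, adjusted p 5.66e-05) at E11.5, 3.87 (SE 0.24, adjusted p 1.5e-11) at E12.5, 4.14 (SE 0.25, adjusted p 7.96e-12) at E13.5 and 4.12 (SE 0.27, adjusted p 1.93e-11) at E15.5. In XX, Rec8 changed on the log2 scale by 1.63 (SE 0.22, adjusted p 2.13e-05) to E12.5, by -0.68 (SE 0.21, adjusted p 0.018) to E13.5 and by -0.86 (SE 0.22, adjusted p 0.00565) to E15.5. The fall to E13.5 was not called without XX E12.5 replicate 2 or 3 or XX E13.5 replicate 2 or 3, where the adjusted p was between 0.0537 and 0.0916, or with XX E13.5 replicate 1 placed at E12.5 (adjusted p 0.163). In XY the log2 change was -0.92 (SE 0.23, adjusted p 0.0019) to E12.5 and -0.84 (SE 0.28, adjusted p 0.0363) between E13.5 and E15.5. The later fall was not called without XY E13.5 replicate 1 or 3 or XY E15.5 replicate 2 or 3 (adjusted p between 0.0829 and 0.142), nor by limma on log2(TPM + 1) (adjusted p 0.0567).

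Sohlh1 was likewise a gene of the XX libraries from the start. It stood at 9.59, 15.1 and 8.16 TPM in XX E11.5 and 18.1, 17.4 and 15.3 TPM in XX E12.5. In XY it stood at 1.59, 1.64 and 1.84 TPM and 1.61, 1.01 and 0.74 TPM. The groups did not overlap at any stage, and the log2 difference was 2.80 (SE 0.33, adjusted p 7.91e-07) at E11.5, 3.72 (SE 0.35, adjusted p 1.01e-08) at E12.5, 5.83 (SE 0.43, adjusted p 1.35e-10) at E13.5 and 1.45 (SE 0.34, adjusted p 0.000695) at E15.5. In XY it fell between E12.5 and E13.5, a log2 change of -2.14 (SE 0.48, adjusted p 0.00355), before its rise to E15.5. The fall had an adjusted p of 0.0558 by limma on log2(TPM + 1) over all genes above 0 TPM. Syce2 was at 101, 119.96 and 86.97 TPM in XX E11.5 and 57.5, 66.8 and 67.25 TPM in XY E11.5, an XX minus XY log2 difference of 0.75 (SE 0.14, adjusted p 0.000244).

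Piwil2 (MILI), the PIWI protein of the cytoplasm, was on the XY side from E12.5. It stood at 1.14, 0.73 and 0.79 TPM in XY E11.5, at 10.04, 7.05 and 6.20 TPM in XY E12.5, at 8.74, 7.75 and 8.76 TPM in XY E13.5 and at 9.03, 11.1 and 8.04 TPM in XY E15.5. No XX library exceeded 2.03 TPM. Its log2 rise in XY between E11.5 and E12.5 was 3.72 (SE 0.25, adjusted p 1.5e-10), and the XX minus XY difference was -3.21 (SE 0.25, adjusted p 5.39e-10) at E12.5, -3.16 (SE 0.26, adjusted p 7.48e-10) at E13.5 and -2.81 (SE 0.25, adjusted p 2.51e-09) at E15.5. Of the piRNA genes, Piwil2 was the 1 that neither sex was called for between E13.5 and E15.5. Kit, the receptor for stem cell factor, marks germ cells but also blood cells and other cells. It fell in XY, from 14.9, 18.95 and 29.3 TPM at E11.5 to 2.47, 3.02 and 2.83 TPM at E12.5 (log2 difference -2.43, SE 0.36, adjusted p 1.12e-05) and to 1.01, 1.07 and 0.76 TPM at E13.5 (log2 difference -1.53, SE 0.39, adjusted p 0.00971). Interstitial markers in XY also went from between 171 and 264 TPM at E11.5 to between 8.43 and 9.02 TPM at E12.5, and their part in Kit was not tested. The later Kit fall was not called without XY E13.5 replicate 3 (adjusted p 0.0664) or by limma on log2(TPM + 1) (adjusted p 0.07). In XX it stood at 12.75, 3.72 and 20.45 TPM at E11.5, where Hba-x, an embryonic haemoglobin, stood at 11873, 1899 and 25919 TPM in the same libraries, and the part of blood cells in Kit was not tested. At the later stages the XX libraries were between 7.86 and 12.97 TPM and above the XY libraries and differed on the log2 scale by 1.71 (SE 0.36, adjusted p 0.000323) at E12.5, 3.27 (SE 0.39, adjusted p 3.73e-07) at E13.5 and 3.75 (SE 0.41, adjusted p 8.72e-08) at E15.5.

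**Figure D4:**
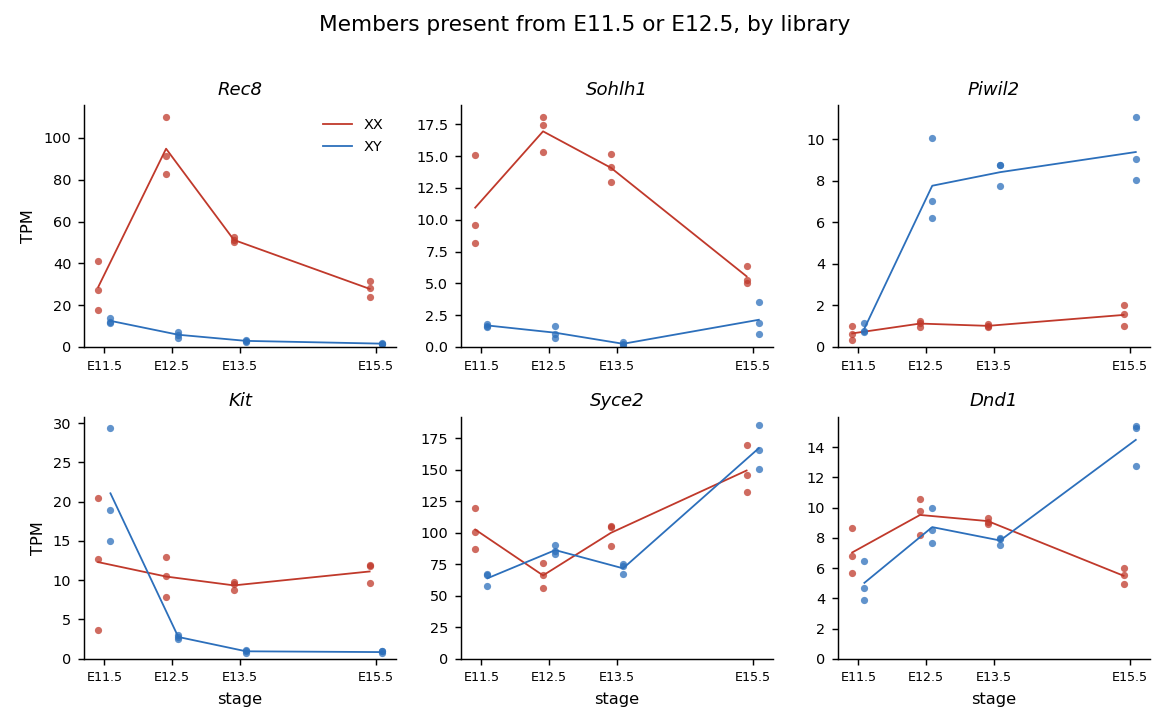
TPM of 6 members by stage, with 1 point per library, XX in red, XY in blue and lines through the means of 3 libraries. Rec8 and Sohlh1 are higher in XX at all 4 stages, Piwil2 is higher in XY from E12.5, Kit falls in XY after E11.5, Syce2 is high in both sexes, and Dnd1 parts between the sexes at E15.5.

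At E11.5 and E12.5, smaller shares of the members than of all genes were called. At E11.5, 4 members were higher in XX, where 21.4% of all genes were, and 3 were higher in XY, where 20.6% of all genes were. The 4 were Syce2, Rec8, Dnd1 and Sohlh1, and the 3 were Stag3, Ddx4 and Tdrd9. Ddx4 stood at 0.46, 0.20 and 0.65 TPM in XX E11.5 and 1.24, 2.02 and 1.14 TPM in XY E11.5, an XX minus XY log2 difference of -1.76 (SE 0.42, adjusted p 0.00202). When only the 6 libraries of E11.5 were fitted, 3 members were called at that stage in all and the adjusted p of Ddx4 was 0.0534. At E12.5, 7 members were higher in XX, where 30.5% of all genes were, and 7 were higher in XY, where 31.5% of all genes were. At E13.5 the balance shifted, with 21 members higher in XX, where 32.8% of all genes were, and 2 higher in XY (Dmc1 and Piwil2), where 33.3% of all genes were. On the log2 scale Sycp3 differed by 1.44 (SE 0.36, adjusted p 0.00161) and Smc1b by 1.86 (SE 0.34, adjusted p 7.19e-05) at E13.5, at levels of a few TPM. The median XX minus XY log2 difference of the 38 members was 0.21, 0.40, 1.41 and 1.91 at the 4 stages, against 0.02, -0.01, 0.01 and 0.05 over all genes.

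Fewer members were called in the earlier steps in time. Between E11.5 and E12.5 in XX, 4 rose (Rec8, Msh4, Piwil2 and Tdrd1), where 16.7% of all genes rose, and 1 fell (Syce2), where 17.3% of all genes fell. That total of 5 became 9 without XX E11.5 replicate 2 and 3 without either XX E11.5 replicate 3 or XX E12.5 replicate 1. In XX from E12.5 to E13.5, 11 rose, where 14.2% of all genes rose, and 1 fell (Rec8), where 17.4% of all genes fell. The 11 were Sycp3, Hormad1, Sycp1, Syce1, Syce2, Tex12, Tex11, Stra8, Dazl, Ddx4 and Dppa3, of which Sycp3 changed on the log2 scale by 1.63 (SE 0.37, adjusted p 0.00203) and Dppa3 by 2.17 (SE 0.59, adjusted p 0.00756). The total of 12 became 7 without XX E13.5 replicate 3. Between E11.5 and E12.5 in XY, 7 rose, where 27.1% of all genes rose, and 5 fell, where 24.8% of all genes fell. In XY from E12.5 to E13.5, 2 rose (Dppa3 and Dppa4), where 8.02% of all genes rose, and 5 fell (Rec8, Stag3, Tdrd9, Sohlh1 and Kit), where 8.62% of all genes fell. That total of 7 became 4 without XY E13.5 replicate 2 or replicate 3.

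Nanog, a core pluripotency factor, stayed low in every library, at between 0.04 and 0.60 TPM, and was called in no comparison between 2 groups. At E15.5, Nanos3 was not called between the sexes, and neither were Syce2, Ddx4, Mov10l1, Mael and Nanog. Across the members that rose, the same library of a group was most often the highest or the lowest. Of the 23 that rose in XX, 19 were highest in XX E15.5 replicate 3 and 17 were lowest in replicate 1, and 20 were lowest in XX E13.5 replicate 1. Of the 22 that rose in XY, 18 were highest in XY E15.5 replicate 2 and 18 were lowest in replicate 1. These members were picked by a rise between the same libraries, so the order was also counted without that pick. Among all members with a group mean of at least 1 TPM, 22 of 32 were highest in XX E15.5 replicate 3. By the same rule 12 of 19 were lowest in XX E13.5 replicate 1, and 19 of 26 were highest in XY E15.5 replicate 2. In XY E15.5, every steroidogenic marker and every interstitial marker was also highest in replicate 2. Among them were Cyp11a1 (8.56, 23.4 and 10.3 TPM) and Insl3 (5.25, 14.1 and 5.73 TPM), which mark Leydig cells. The lead was smallest for Hsd3b1, at 26.8, 30.8 and 30.6 TPM. In XX E15.5, interstitial markers summed to 74.2, 107 and 128 TPM and were also highest in replicate 3. Some markers did not follow the order of the members in their group. The steroidogenic gene Hsd3b1 stood at 243, 241 and 226 TPM in XX E15.5, lowest in replicate 3. The haemoglobin gene Hba-a1 stood at 124, 152 and 203 TPM in XY E15.5, highest in replicate 3. The part of other cells in these levels was not tested.

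Other genes of the same processes were read from lists that hold no member. Of 19 tested among 21 other meiosis genes, 12 rose and 1 fell (Trip13) in XX from E13.5 to E15.5, 5 rose and none fell in XY, and 14 were higher in XX and 3 in XY at E15.5 (edgeR, each called in the fit over all genes). Of all genes, 12.8% rose and 12.8% fell in XX, 11.51% rose and 9.79% fell in XY, and 34.9% were higher in XX and 34.4% in XY at E15.5. Spata22, a partner of MEIOB, went from a mean of 0.0333 ± 0.0577 to 8.57 ± 2.43 TPM in XX (SD, n = 3) and was at 0.153 ± 0.0802 TPM in XY E15.5. Hfm1, a crossover helicase, went from 1.70 ± 0.645 to 8.55 ± 2.21 TPM in XX. Of 17 tested among 22 other germline genes, 10 rose and 1 fell (Utf1) in XX, 11 rose and none fell in XY, and 6 were higher in XX and 5 in XY at E15.5, which are shares near those of all genes at that stage. Gtsf1, a piRNA pathway gene, had no count in XY E13.5 and stood at 6.94 ± 1.97 TPM in XY E15.5 and 4.14 ± 0.515 TPM in XX E15.5. Dnmt3l, a cofactor of DNA methylation in fetal male germ cells, was at 1.34 ± 0.599 TPM in XY E15.5 and had no count in XX E15.5. Of 4 tested among 9 other oocyte genes, 2 rose and none fell in XX, 1 rose and none fell in XY, and 3 were higher in XX at E15.5.

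The known repressors of germline genes were read as a last list of 10, all tested. At E15.5, 8 were higher in XY (E2f6, Mga, Max, L3mbtl2, Setdb1, Uhrf1, Dnmt1 and Dnmt3b) and 1 was higher in XX (Pcgf6), where 34.4% and 34.9% of all genes were. Of the same 10, 2, 6 and 7 were higher in XY at E11.5, E12.5 and E13.5 in turn, where 20.6%, 31.5% and 33.3% of all genes were. The share at E11.5 is near that of all genes. In XX 1, 1 and 0 were higher at these stages, where 21.4%, 30.5% and 32.8% of all genes were. E2f6 stood at 10.01 ± 0.727 TPM in XX E15.5 and 33.1 ± 1.72 TPM in XY E15.5, and Mga at 18.5 ± 2.60 and 54.3 ± 9.03 TPM. Dnmt1, the maintenance DNA methyltransferase, stood at 12.1 ± 2.07 and 72.01 ± 2.25 TPM. From E13.5 to E15.5, 1 rose and 3 fell in XX, where 12.8% of all genes rose and 12.8% fell. In XY 3 rose and 1 fell, where 11.51% of all genes rose and 9.79% fell. Uhrf1 and Dnmt1 also follow DNA replication, and the relation of these levels to those of the members was not tested.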

How the data were processed

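RNA was measured in 24 libraries of cells sorted from mouse fetal gonads, and each was given its sex and stage from its title. The 39 members, the other gene lists, the tests and the rule for naming genes (any member, any gene of those lists) were chosen with earlier results of these data known. The authors deposited a table of estimated counts, of which 17.5% were not whole, so they were rounded before testing. The deposited TPM values were also made by the authors, summed to between 938740 and 961696 per library over the genes listed, and are given here as levels. The submitters' processing notes name build mm10, and the aligner, the counter and the use of strand are not given in the sources used here.

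The test was the robust quasi-likelihood test of edgeR 4.0.16 (R 4.3.3, TMM scaling, filterByExpr, two-sided). One mean was fitted for each of 8 groups, which left 16 residual degrees of freedom, and the biological coefficient of variation was 17.4%. Benjamini-Hochberg adjustment was over the 16190 genes tested, calls were made at an adjusted p under 0.05, and standard errors were derived from the F statistic. Log2 differences come from this fit on counts. Where all libraries of a group were at 0, a fold is a lower bound against 3 counts per library, which is between 0.0774 and 0.26 CPM and covers counting error only. The script was tested on simulated counts. 1 marker gene of another cell type is not reported here and was left out of its list. Gene positions are from GENCODE M21 (GRCm38). Alternatives were DESeq2 1.42.0, limma 3.58.1 on log2(TPM + 1) and log2(TPM + 0.1), DESeq2 size factors, other count filters, an added fold threshold, a replicate block, only the libraries compared, each library left out, and, chosen after seeing the data, XX E13.5 replicate 1 placed at E12.5.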

Additional observations from a re-analysis of the deposited data

Results flagged for a closer look

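The step from E13.5 to E15.5 differed between XX and XY, by a test of the difference itself in edgeR, for 19 of the 38 members tested, larger in XX for 9 (12.4% of all genes) and lower in XX for 10 (13.46% of all genes). The XX minus XY difference changed over the 4 stages for 30 members by the same kind of test, where 70.1% of all genes were called, so this share is near that of all genes. For Dppa3, Dnd1 and Sohlh1 the steps were called in opposite directions, downward in XX and upward in XY, and the difference of the log2 steps was -5.20 for Dppa3, -1.60 for Dnd1 and -4.38 for Sohlh1.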

How the results depend on the processing

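Besides the edgeR fit reported, 35 alternative settings were run, of which 24 left out a library each. Of the counts of members called, 110 of 131 under the other settings and 282 of 288 with a library left out stayed within 1.5 times. With at least 10 counts in every library, which left 10 members tested, 4, 5, 8 and 9 members were called between the sexes at the successive stages, 4 and 7 in the later XX steps, 5, 3 and 6 in the XY steps, 6 for the difference of steps and 9 for the interaction. When calls also had to reach a log2 difference of 1 in size, 4 were called between the sexes at E11.5 and 2 in the first XX step, and with only the libraries compared 3 and 1. By limma on log2(TPM + 1), 15 were called between the sexes at E13.5 and 4 in XY from E12.5 to E13.5, and with all genes above 0 TPM these were 15 and 2, with 6 in XX from E12.5 to E13.5 and 7 in the first XY step. The stricter count filter left fewer members and the fit of the libraries compared used fewer libraries. The causes of these changes in the counts were not tested. Leaving out a library gave 5 to 9, 12 to 16, 16 to 24 and 31 to 33 between the sexes, 3 to 9, 7 to 16 and 24 to 28 in the XX steps, 10 to 13, 4 to 10 and 19 to 24 in the XY steps, 16 to 20 for the difference of steps and 28 to 31 for the interaction. The replicate block gave 28 in XX and 23 in XY from E13.5 to E15.5 and 32 between the sexes at E15.5. Replicate numbers gave no general sign of pairing. The deviations of same-numbered libraries had a mean correlation of 0.00423 over 84 pairs, against -0.00238 over 168 pairs of other numbers. Single values reached 0.351 and 0.272, and 11 of 24 libraries correlated best with their own number. A mean over all pairs cannot decide whether some groups were paired. Among 91 single differences, 1 changed sign, the uncalled Ddx4 difference between the sexes at E15.5 (-0.101 without XX E15.5 replicate 3 and -0.073 without XY E15.5 replicate 1, with a highest value of 0.414 without XY E15.5 replicate 2). Placing XX E13.5 replicate 1 at E12.5, chosen after seeing the data, gave 23 in the last XX step. Depth limits members near the floor of 3 counts, such as Nanos2.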
